A study of Mus musculus with 10 samples.

Results

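Endothelins, the angiotensins and adrenomedullin are peptides that act on vessels and heart through G protein-coupled receptors. Endothelin-converting enzyme and angiotensin-converting enzyme cut inactive precursors to the active endothelins and to angiotensin II, which narrow vessels, whereas adrenomedullin widens them. In the atrium the endothelin and angiotensin receptors are known to couple to Gq proteins and calcium release, in muscle cells, fibroblasts and the vessel wall. The 9 genes described here were chosen by symbol from the 54532 genes of the deposited count table: Edn1 and Edn3 (ligands), Ednra and Ednrb (receptors), Ece1 (endothelin-converting enzyme), Ace (angiotensin-converting enzyme), Agt (angiotensinogen), Agtr1a (a type 1 angiotensin receptor) and Adm (adrenomedullin). Each symbol had 1 row in the table.

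The 10 RNA samples came from left atrial tissue around the pulmonary veins of mice 7 weeks old, with the appendage and most of the veins cut away. The 4 control samples (Ctrl) had the genotype R26creERT2/creERT2; Tbx5+/+, and the 6 knockout samples (CKO) carried R26creERT2/creERT2 with both Tbx5 alleles floxed. Both groups thus carried an inducible Cre recombinase at the ubiquitously expressed Rosa26 locus, received tamoxifen on 3 days at 6 weeks of age, and were sampled 1 week later. The recombinase was thus not limited to muscle cells. Tbx5 is a T-box transcription factor of atrial development and rhythm, and the comparison asks how these genes stood after its deletion in this region. The appendage is described here only through the authors' deposited table of fold changes.

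Library totals ranged from 8602794 to 10040808 estimated counts. The counts of Tbx5 as a whole were not lower in CKO (CPM, counts scaled to library size, averaged 133 ± 31.5 over Ctrl, SD, n = 4, and 267 ± 105 over CKO, SD, n = 6; adjusted p = 0.101, edgeR), so the sum over the gene does not check the labels. Coverage of exon 3 of its main transcript, which general knowledge of this allele and not the labels places between the loxP sites, relative to the transcript's median exon was 0.903 to 1.7 across Ctrl libraries and 0.175 to 0.618 across CKO libraries. The groups did not overlap there. This ratio also depends on the coverage of the other exons, and some exon 3 coverage remained in every CKO library. It therefore does not measure how complete the deletion was. Markers of atrial muscle were abundant in every library, at 27422.8 to 43729.9 CPM summed over 8 genes. Airway epithelium RNA stood out in 2 libraries: Scgb1a1, a secretory product of the airway lining, reached 858 CPM (Ctrl 3) and 1446.2 CPM (CKO 4). Xist, the RNA of the inactive X chromosome, split the libraries into 5 at 1000 CPM or more (Ctrl 1 and 2, CKO 1 to 3) and 5 at 6.41 CPM or less, and the labels give no sex.

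Promoter windows of 300 bases (250 before and 50 after the annotated start) were available for 8 of the 9 genes, 12 windows in all, from RefSeq on build GRCm38.p6. Those of Edn1, the gene that passed the test below, of Ece1, the one gene here whose window held the T-box half-site AGGTGT, and of Adm, whose groups also parted on one scale, are printed 5′ to 3′ on the gene's strand. Capitals mark matches to AGGTGT, to the GATA motif AGATAA, to the AP-1 motif TGANTCA or to the hypoxia motif ACGTG, searched on both strands, so that reverse matches read as the complement.
Edn1, plus strand, chr13:42301226-42301525: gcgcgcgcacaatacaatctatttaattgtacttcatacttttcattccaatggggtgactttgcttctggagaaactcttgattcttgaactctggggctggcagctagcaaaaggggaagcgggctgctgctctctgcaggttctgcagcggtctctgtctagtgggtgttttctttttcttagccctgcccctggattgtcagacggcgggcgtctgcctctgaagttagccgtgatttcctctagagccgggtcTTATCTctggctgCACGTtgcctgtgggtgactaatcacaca
Ece1, plus strand, chr4:137861987-137862286: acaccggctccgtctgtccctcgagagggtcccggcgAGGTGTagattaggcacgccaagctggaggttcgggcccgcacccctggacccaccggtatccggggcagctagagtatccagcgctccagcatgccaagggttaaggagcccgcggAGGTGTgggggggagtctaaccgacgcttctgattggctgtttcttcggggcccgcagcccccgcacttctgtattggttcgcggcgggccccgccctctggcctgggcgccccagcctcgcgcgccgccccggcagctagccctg
Adm, plus strand, chr7:110627407-110627706: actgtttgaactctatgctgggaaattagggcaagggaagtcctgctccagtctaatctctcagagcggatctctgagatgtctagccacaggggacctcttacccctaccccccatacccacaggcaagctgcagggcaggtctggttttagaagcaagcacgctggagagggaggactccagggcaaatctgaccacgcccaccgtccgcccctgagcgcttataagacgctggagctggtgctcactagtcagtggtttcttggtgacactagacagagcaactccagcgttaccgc
The Edn1 window held 1 reverse match to AGATAA and 1 to ACGTG and no AGGTGT. The T-box half-site occurred in 2 of the 12 windows, both of Ece1 and sharing bases, and in 13.7% of 32851 mouse promoters of the same length. AGATAA occurred in 1 window (11.2% of all promoters), ACGTG in 2 windows, 1 of Edn1 and 1 of Ece1 (19.6%), and TGANTCA in 0 (7.81%). These are matches of letters and say nothing of binding.

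TPM values, which scale by library and correct for transcript length, placed the 2 converting enzymes highest. In Ctrl, Ece1 was at 119 ± 22 TPM and Ace at 91.3 ± 25.9 (SD, n = 4), and their ranges overlapped. Ednra followed at 51 ± 13.8 TPM. Ednrb (24.6 ± 6.44 TPM), Adm (23.8 ± 6.98), Agt (19.8 ± 4.9) and Agtr1a (17.6 ± 3.77) followed, and their ranges over the 4 libraries overlapped with each other. Edn1 was lower on average, at 9.27 ± 2.89 TPM, though its range (7.24 to 13.5) overlapped that of Agt (12.6 to 23.4). Edn3 was near 0, at 0.626 ± 0.813. In CKO the order changed in the middle: Ednra was at 30.3 ± 10.2 TPM (SD, n = 6), beside Ednrb at 27.3 ± 4.22, and Edn1, at 18.8 ± 3.48 TPM, lay among Agtr1a (15.6 ± 6.46), Agt (14.8 ± 4.17) and Adm (13.9 ± 1.84).

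**Figure D1:**
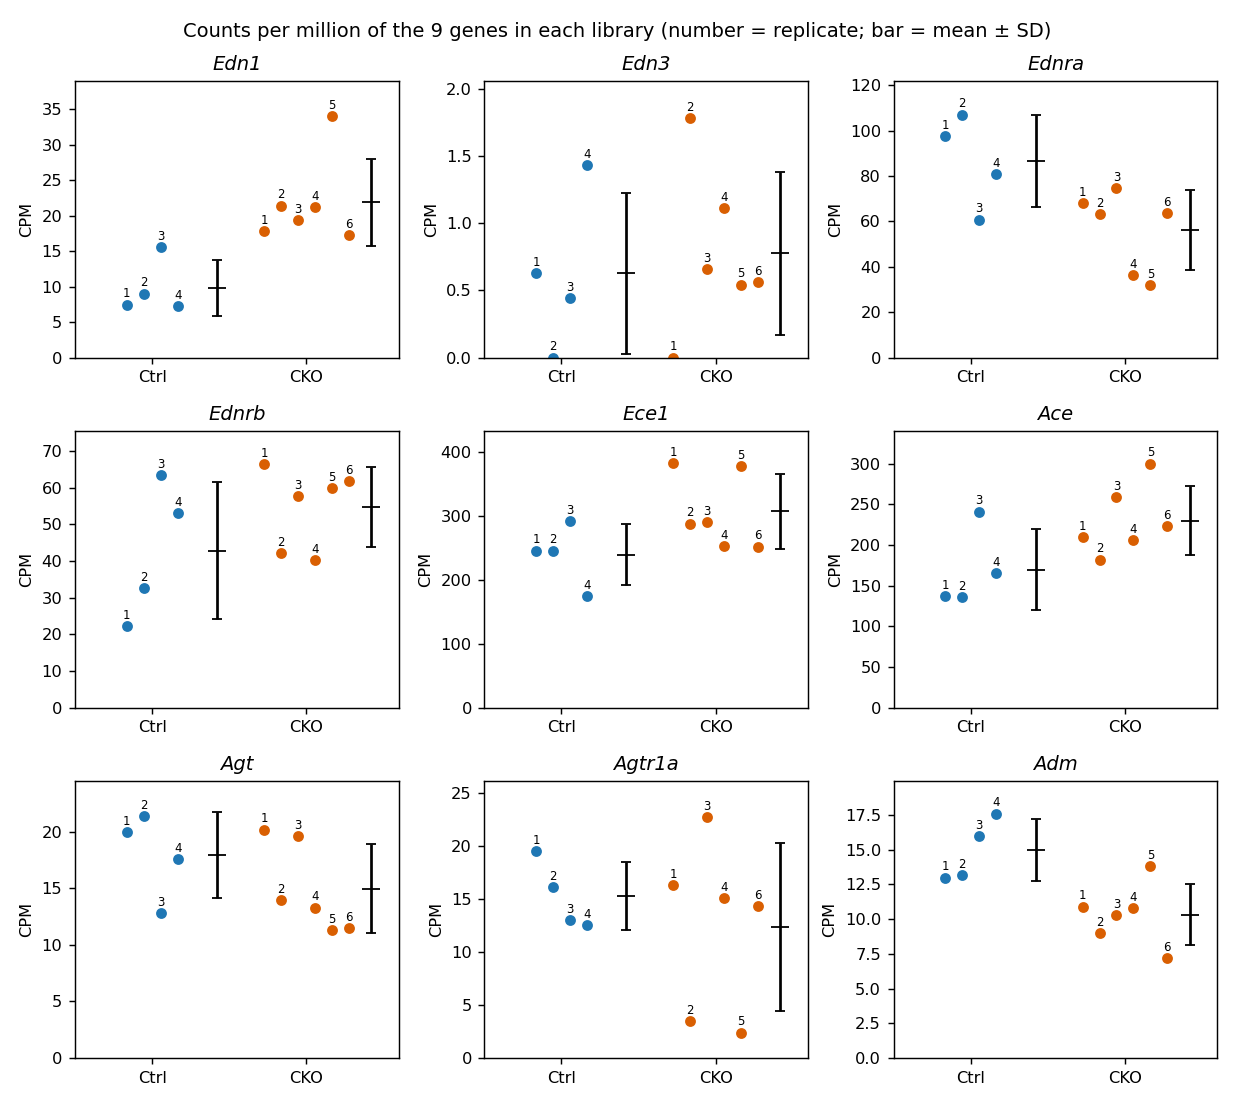
CPM of the 9 genes in each library, Ctrl in blue and CKO in orange, with the replicate number above each point and the group mean ± SD as a black bar; each panel has its own axis from 0. The lowest CKO library for Edn1 (17.3 CPM) lies above the highest Ctrl library (15.6 CPM), and the groups overlap in the other 8 panels.

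Edn1, the precursor gene of endothelin-1, was the only one of these genes that passed the threshold of 0.05 on the adjusted p. It stood at 7.47, 9.03, 15.6 and 7.28 CPM in Ctrl 1 to 4 and at 17.3 CPM (lowest), 20.3 (median) and 34 (highest) in CKO. Every CKO library lay above every Ctrl library; Ctrl 3 came nearest to the CKO range, and CKO 5 was the highest. The log2 fold change was 1.15 (SE 0.26, adjusted p = 0.0428, edgeR quasi-likelihood test with Benjamini-Hochberg adjustment over 17752 genes), a 2.22-fold difference. Among all genes tested 2.80% passed (1.54% higher and 1.26% lower in CKO), and groups did not overlap on the CPM scale in 5.72%. Thus 1 of the 8 members tested was called and 1 of 8 did not overlap, while 4 had a positive and 4 a negative fold change, with a median log2 fold change of 0.04 against -0.03 over all genes tested.

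The Edn1 call lay close to the threshold. It held in 6 of 19 alternative settings and missed in 13, among them 9 of the 10 that left out 1 library (adjusted p between 0.012 and 0.141; only the fit without Ctrl 3 passed). It also missed with library-size scaling (0.0579) and with no filter on low counts (0.0668), whereas DESeq2 gave 0.00109. The log2 fold change stayed between 0.94 and 1.49 in all 19. Among the settings that missed, the log2 fold change was lowest without CKO 2 and CKO 5 (0.94) and without CKO 5 (0.98). It was 1.03, 1.04 and 1.12 without Ctrl 4, Ctrl 1 and Ctrl 2, and 1.08 with library-size scaling and with a replicate block. In the other settings that missed it was above the reported 1.15. It was 1.19 with no filter, and 1.20, 1.16, 1.18, 1.16 and 1.21 without CKO 1, 2, 3, 4 and 6. The cause of the lost calls was not tested.

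**Figure D2:**
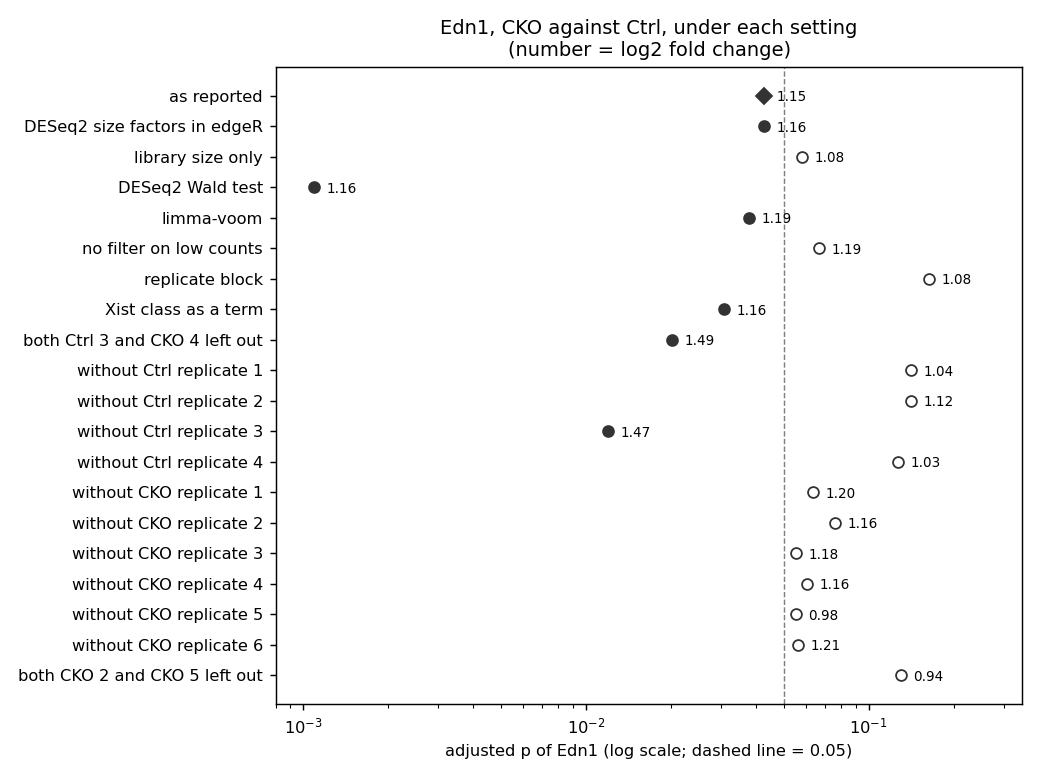
Adjusted p of Edn1 for CKO against Ctrl (log axis) as reported (diamond) and under 19 alternative settings (circles), with the log2 fold change beside each point; filled symbols are under 0.05. The fold change ranges from 0.94 to 1.49 while the adjusted p ranges from 0.00109 to 0.164.

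Edn1 lies on chromosome 13 (42301476 to 42307990, plus strand, GRCm38) and has 1 annotated transcript of 5 exons in the files. Its coverage was low, with 1581 counts over the 10 libraries. Mean coverage, which is not scaled to library size, was higher in CKO in each of the 5 exons. In exon 5, the longest at 1214 bases, it was 2.01 ± 0.905 reads per base in Ctrl and 5.11 ± 1.7 in CKO. The ranges there (1.3 to 3.34 and 3.53 to 8.28) did not overlap. Those of exon 2 did not overlap either, whereas those of exons 1, 3 and 4 did. Gm47118, an annotated gene on the other strand, was at 1.25 CPM at most.

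The Edn1 difference was also read within subsets of libraries and beside markers of other cell types. Within the libraries high in Xist, Edn1 was at 7.47 to 9.03 CPM in Ctrl (n = 2) and 17.8 to 21.4 CPM in CKO (n = 3). Within those low in Xist it was at 7.28 to 15.6 CPM in Ctrl and 17.3 to 34 CPM in CKO. The groups did not overlap over all 10 libraries, so they could not overlap in either subset. Without Ctrl 3 and CKO 4, the 2 libraries highest in airway RNA, the log2 fold change was 1.49 (adjusted p = 0.0201, edgeR). That fit kept Ctrl 1, with Scgb1a1 at 41.9 CPM, and CKO 5, with 7.93 CPM. Endothelium is the cell type best known for making endothelin-1. The summed level of 8 endothelial markers was 898 to 1183.7 CPM in Ctrl and 1167.7 to 1344.7 CPM in CKO, and the ranges overlapped. Of the 8 genes 0 were called, with a median log2 fold change of 0.21, and only Flt1 was negative (-0.02). Pecam1 alone did not overlap, at 233 to 316 CPM in Ctrl and 329 to 420 CPM in CKO. Its log2 fold change was 0.46 (adjusted p = 0.0618, edgeR). The 7 fibroblast markers summed to 2658.9 to 4606.2 CPM in Ctrl and 4284.7 to 6927.6 CPM in CKO, with overlap, and 0 were called. Of these Col1a2 alone did not overlap (611 to 1017.1 CPM in Ctrl, 1029.3 to 1767.7 CPM in CKO, adjusted p = 0.102, edgeR). Of the 5 tested leukocyte markers 1 was called: Cd68, a macrophage protein, was at 7.72 to 16.7 CPM over Ctrl and 22.5 to 46.7 CPM over CKO (log2 fold change 1.15, adjusted p = 0.039, edgeR), while the summed list overlapped (658 to 1335.0 CPM and 701 to 1535.0 CPM, median log2 fold change 0.47). Of the 5 tested nerve and Schwann cell markers 1 was called: Dbh, an enzyme of noradrenaline synthesis, was lower (12.4 to 21.7 CPM over Ctrl and 2.12 to 7.11 CPM over CKO, adjusted p = 0.00619, edgeR), and the sums did not overlap (41.2 to 84.8 CPM and 21.6 to 38.2 CPM). The atrial muscle list is given beside Pam below, and in the other 6 marker lists 0 genes were called. Over all genes tested 2.80% were called. The part of these cell types in the Edn1 difference was not tested, and in bulk tissue fewer cells of a type and less RNA per cell cannot be told apart.

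By the mean absolute difference of centred and scaled log2 CPM over the 10 libraries, the genes most like Edn1 among 12623 with a mean of at least 5 CPM were Atpif1, an inhibitor of mitochondrial ATP synthase (0.202), the annotated gene Gm5532 (0.207) and Chmp4b, a subunit of the membrane-cutting ESCRT-III complex (0.216). Atpif1 averaged 65.2 ± 15.2 CPM over Ctrl and 109 ± 20 CPM over CKO (SD). These genes were picked for that likeness, so their difference between groups is a description.

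Edn3, the gene of endothelin-3, was barely detected. It was at 0.631, 0, 0.442 and 1.43 CPM in Ctrl 1 to 4 and at 0, 0.609 and 1.78 CPM (lowest, median, highest) in CKO, 67 counts in all. It did not pass the filter on low counts and was not tested. The 0 of CKO 1 allows up to 0.334 CPM (3 counts, counting error only), and in Ctrl 2 the transcript file did not list the gene.

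Ednra, the receptor that mediates contraction in smooth muscle, was lower on average in CKO without passing the test. It stood at 97.6, 107, 60.8 and 80.7 CPM in Ctrl 1 to 4, and at 32, 63.4 and 74.5 CPM (lowest, median, highest) in CKO. The groups overlapped through Ctrl 3, and CKO 4 and CKO 5 were the lowest libraries. The log2 fold change was -0.62 (SE 0.25, adjusted p = 0.238, edgeR). Ednra also varied with Xist: libraries high in Xist had 97.6 to 107 CPM in Ctrl and 63.3 to 74.5 CPM in CKO, against 60.8 to 80.7 CPM and 32 to 63.5 CPM in those low in Xist. Ctrl and CKO did not overlap among the libraries high in Xist and overlapped among those low in it. Other members parted by Xist as well. Within Ctrl (n = 2 in each Xist class) the classes did not overlap for Ednrb, Ace, Agt, Agtr1a and Adm either. Within CKO (n = 3 in each) this held for Agt alone. The gene 4933431K23Rik, annotated on the other strand within Ednra, was at 5.11 to 24 CPM, and the library kit named in the labels does not mark strand.

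Ednrb, the receptor that on endothelium drives nitric oxide release and clears endothelin-1, was at 22.3, 32.6, 63.3 and 53 CPM in Ctrl 1 to 4 and at 40.3, 58.8 and 66.3 CPM in CKO. The spread within Ctrl covered most of the CKO range (log2 fold change 0.35, SE 0.27, adjusted p = 0.531, edgeR). Its level was assigned to different transcripts in different libraries. ENSMUST00000227824, the shortest of 3 at 2669 bases, took 86.99% and 80.11% of the Ednrb TPM in Ctrl 1 and 2, 58.73% in CKO 4 and 69.33% in CKO 5, and 0 in the other 6 libraries. ENSMUST00000172237 (3989 bases) took most in Ctrl 3 and 4 and CKO 1, 3 and 6, and ENSMUST00000022718 (4107 bases) took 95.56% in CKO 2. The estimated counts are built from the coverage assigned to each transcript, so they are not independent of this assignment. Ctrl 1, Ctrl 2 and CKO 4, all given much of ENSMUST00000227824, had the lowest Ednrb counts (22.3, 32.6 and 40.3 CPM). Ctrl 1 and Ctrl 2 were also the 2 Ctrl libraries high in Xist. CKO 5, also given that transcript, had 59.9 CPM, and CKO 2, given none of it, had 42.2 CPM. On the TPM scale Ednrb was at 24.6 ± 6.44 in Ctrl and 27.3 ± 4.22 in CKO.

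Ece1, whose product makes active endothelin-1 from big endothelin, had the highest mean TPM of the family in both groups. It was at 246, 246, 292 and 175 CPM in Ctrl 1 to 4 and at 252, 289 and 383 CPM in CKO, and 2 CKO libraries lay above all Ctrl libraries. Its log2 fold change was 0.36 (SE 0.17, adjusted p = 0.319, edgeR). One transcript, ENSMUST00000102518, held 77.6% to 95.4% of its TPM in every library.

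Ace was at 137, 136, 241 and 165 CPM in Ctrl 1 to 4 and at 182, 217 and 300 CPM in CKO, so that only Ctrl 3 reached into the CKO range. On the log2 scale the fold change was 0.44 (SE 0.19, adjusted p = 0.269, edgeR). The split between its transcripts also differed among libraries. ENSMUST00000001963, the longest at 4906 bases, held 39.53%, 30.84%, 24.2% and 23.95% of the Ace TPM in Ctrl 1 to 4. It held 45.91% to 63.99% in CKO 2 to 6 but 23.4% in CKO 1, so the groups overlapped through 1 library. No test was run on these shares, and the 2 main transcripts overlap on the genome, so the files hold an estimate of how reads divide between them.

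Agt, the gene of the precursor of all angiotensins, was at 20, 21.4, 12.8 and 17.6 CPM in Ctrl 1 to 4 and at 11.3, 13.6 and 20.2 CPM in CKO. The groups overlapped widely (log2 fold change -0.26, SE 0.21, adjusted p = 0.554, edgeR).

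Agtr1a, which encodes the main receptor for angiotensin II in mouse, was split within CKO. It was at 19.5, 16.1, 13 and 12.5 CPM in Ctrl 1 to 4. In CKO it was at 3.45 CPM in CKO 2 and 2.39 CPM in CKO 5, and at 14.3 to 22.7 CPM in the other 4 libraries, which lay within or above the Ctrl range. The log2 fold change was -0.30 (SE 0.51, adjusted p = 0.8, edgeR), with the widest SE of the family. Coverage assigned to exon 3 of ENSMUST00000066412, the longest exon at 1966 bases, was 0.084 reads per base in CKO 2 and 0 in CKO 5. It was 2.41 to 4.65 in the other 8 libraries. Exon 2 of ENSMUST00000221743 covers the first 205 bases of that exon and was assigned 1.607 in CKO 2 and 0.872 in CKO 5. The counts are built from such assigned coverage, and whether the exon itself lost reads was not tested. The short transcripts still had reads in both: total Agtr1a TPM was 8.66 in CKO 2 and 7.69 in CKO 5. With CKO 2 and CKO 5 left out, a choice made after their values were seen and one that removes the lowest libraries, the log2 fold change was 0.16 (adjusted p = 0.809, edgeR). Gm48161, annotated on the same strand within Agtr1a, was at 9.29 to 27.1 CPM.

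**Figure D3:**
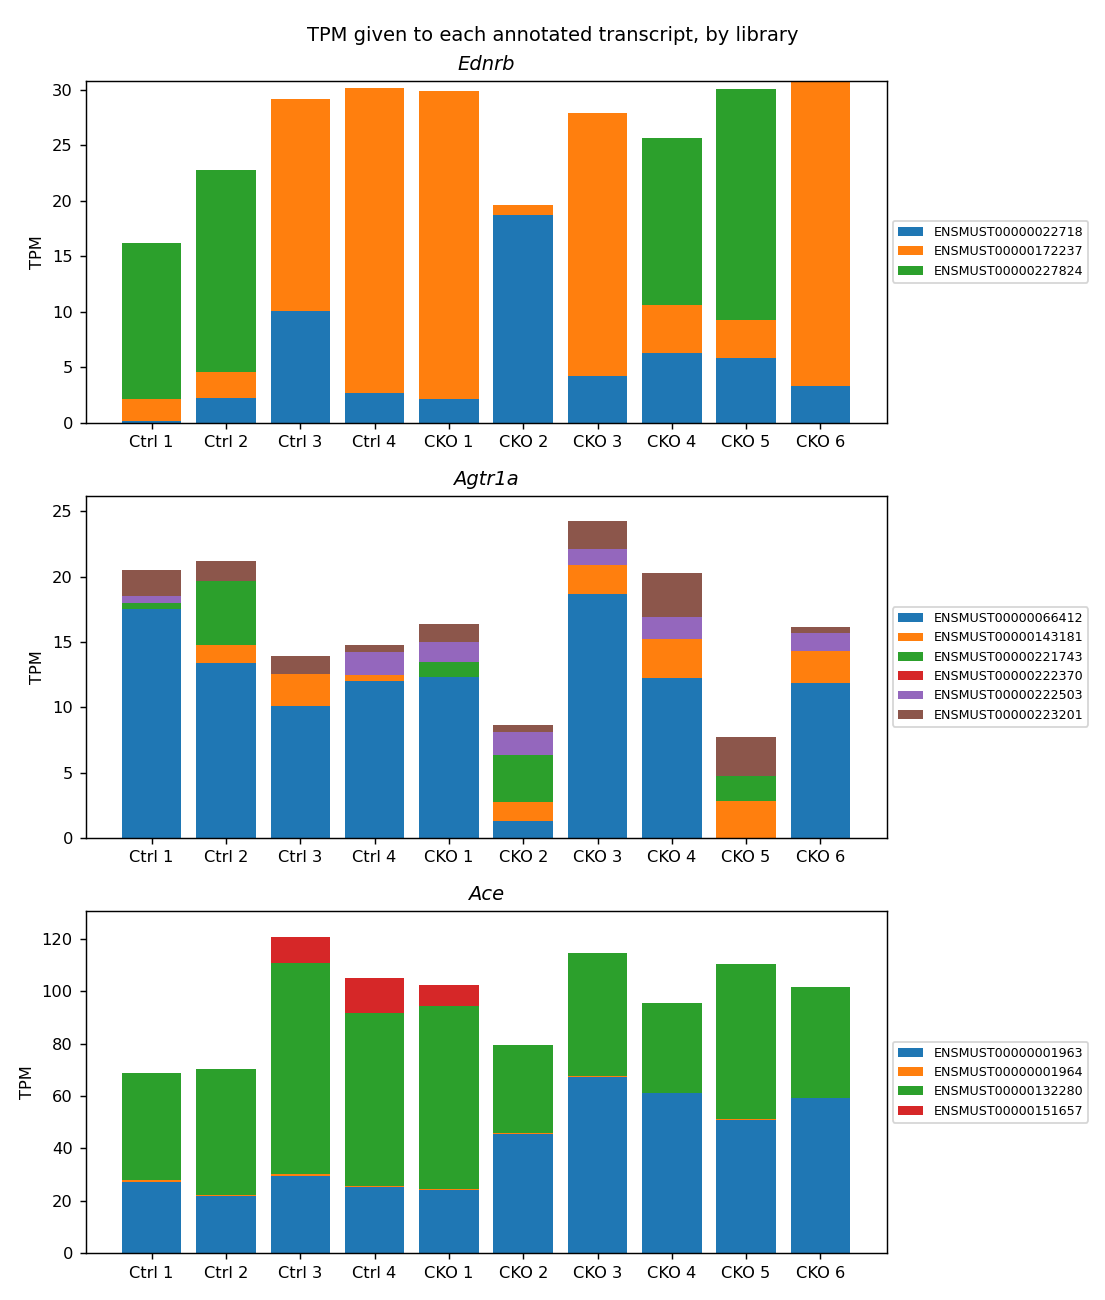
TPM given to each annotated transcript (colours) of Ednrb, Agtr1a and Ace in the 10 libraries, stacked to the total of the gene. The main Agtr1a transcript is at or near 0 in CKO 2 and CKO 5 alone, and the transcript that carries Ednrb changes from library to library in both groups.

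Adm was at 13, 13.2, 16 and 17.6 CPM in Ctrl 1 to 4 and at 7.2, 10.5 and 13.8 CPM in CKO. Of the 6 CKO libraries 5 lay below all Ctrl libraries, and CKO 5 overlapped with them. The log2 fold change was -0.53 (SE 0.18, adjusted p = 0.158, edgeR), the lowest p of the members after Edn1. On the TPM scale Adm was at 19.5, 19.5, 22.3 and 34.1 in Ctrl 1 to 4 and at 10.9 to 15.9 in CKO, and the groups did not overlap. On that scale 2 of the 8 tested members, Edn1 and Adm, did not overlap, as did 4.99% of all genes tested. Before adjustment 4 of the 8 had a p under 0.05, as did 17.0% of all genes tested, and of the members only Edn1 passed after it.

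The genes that act around these members were read from 4 lists with 61 genes, of which 50 were tested. In all, 1 was higher and 2 were lower in CKO, with a median log2 fold change of 0.05. Over all genes tested 1.54% were higher and 1.26% lower, with a median of -0.03. In the list of other endothelin genes 0 of 3 tested were called. Its most abundant members were Mmp2, a matrix protease that can cut big endothelin (log2 fold change 0.28, adjusted p = 0.36), and Furin, a protease that processes the endothelin precursor (-0.31, adjusted p = 0.449, both edgeR). The other tested gene, Mme, encodes neprilysin, a protease that breaks down endothelins and natriuretic peptides, and is named after its values were seen. It was at 67.6, 24, 62.6 and 29.6 CPM in Ctrl 1 to 4 and at 7.02, 15.9 and 31.8 CPM in CKO, and the groups overlapped (log2 fold change -1.35, SE 0.46, adjusted p = 0.161, edgeR). In the authors' deposited table for the same tissue Mme passed, at -1.37 (false discovery rate 0.0119). In the list of other renin and angiotensin genes 0 of 17 tested were called. Ctsd, a lysosomal protease, had a log2 fold change of 0.13 (adjusted p = 0.667) and Lnpep, an aminopeptidase that binds angiotensin IV, -0.00 (adjusted p = 0.998, both edgeR). Ren1, the gene of renin, was at 0.652 CPM at most in any library and was not tested.

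Among the other adrenomedullin and calcitonin peptide genes 1 of 8 tested was called, against 2.80% of all genes tested. Pam encodes the enzyme that amidates adrenomedullin and many other peptides, and it is abundant in atrial muscle granules. It was at 6667.4, 6525.2, 4619.8 and 5587.9 CPM in Ctrl 1 to 4 and at 2161.2, 2844.5 and 3551.4 CPM in CKO. Every CKO library lay below every Ctrl library (log2 fold change -1.04, SE 0.17, adjusted p = 0.00798, edgeR). Beside it, 3 of the 8 atrial muscle markers were lower and 1 was higher, with a median log2 fold change of -0.89. Calcrl, the receptor that adrenomedullin uses with its Ramp partners, had a log2 fold change of 0.52 (SE 0.21, adjusted p = 0.231, edgeR), and passed in 1 of 19 alternatives. Leaving out 1 library gave 0.35 (without Ctrl 4, adjusted p = 0.454) to 0.77 (without Ctrl 3, adjusted p = 0.0488).

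Of 22 genes of Gq and calcium signalling 1 was higher and 1 was lower in CKO, against 1.54% and 1.26% of all genes tested. Rgs2, a negative regulator of Gq signals, was at 111, 77.9, 93.1 and 104 CPM in Ctrl 1 to 4 and at 30.6, 41.6 and 69 CPM in CKO, with no overlap. Its log2 fold change was -1.11 (SE 0.20, adjusted p = 0.0155, edgeR), and the call was lost without Ctrl 1 (-1.03, adjusted p = 0.0589) or Ctrl 4 (-1.07, adjusted p = 0.0529). Rcan1, an inhibitor of calcineurin whose own transcription calcineurin raises, was at 40.9, 42.5, 47 and 50.4 CPM in Ctrl 1 to 4 and at 68.1, 112 and 155 CPM in CKO, also with no overlap. Rcan1 had a log2 fold change of 1.27 (SE 0.23, adjusted p = 0.0155, edgeR), and its call was lost without Ctrl 1 (1.22, adjusted p = 0.0601) or Ctrl 2 (1.25, adjusted p = 0.0634). The 2 most abundant genes of the list, Rgs5 (0.01) and Itpr1 (-0.02), had log2 fold changes near 0 (adjusted p = 0.979 and 0.925, edgeR).

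**Figure D4:**
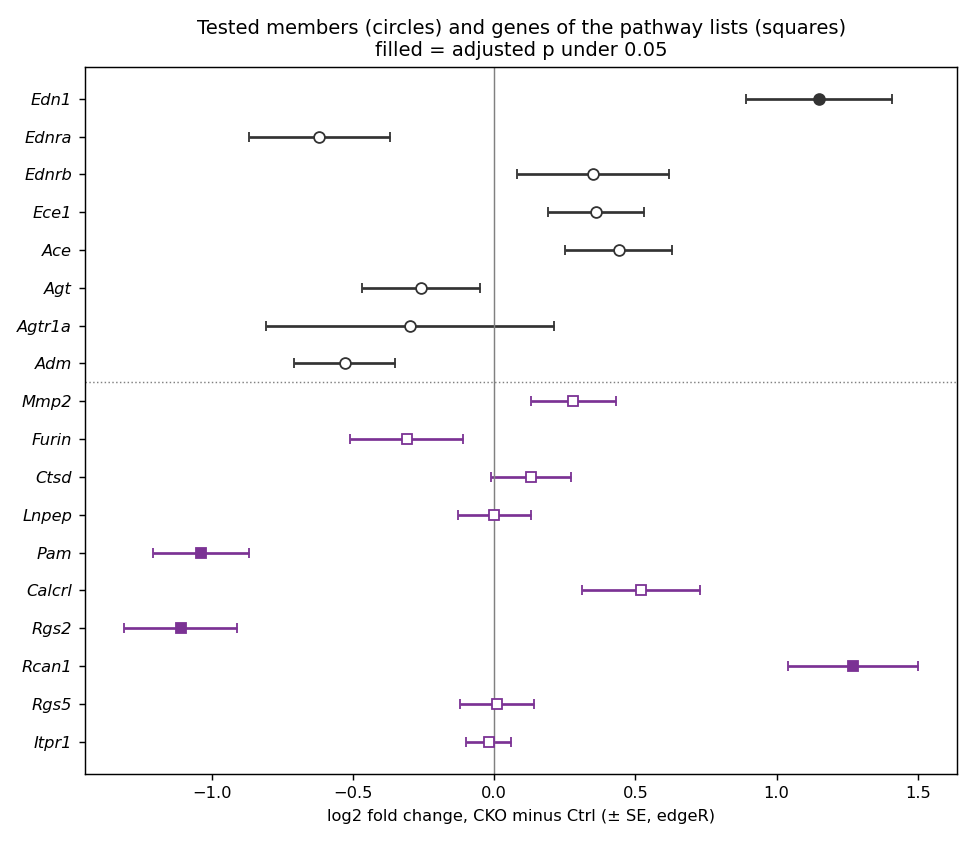
Log2 fold change, CKO minus Ctrl, with its SE for the 8 tested members (circles) and 10 genes of the surrounding lists (squares); filled symbols have an adjusted p under 0.05. Edn1 (1.15) and Rcan1 (1.27) lie to the right and Pam (-1.04) and Rgs2 (-1.11) to the left.

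The authors' deposited table gives 8 of the 9 members, all but Edn3, in 3 comparisons: the region, the appendage of CKO against Ctrl mice, and the tissue around the pulmonary veins of CKO against Ctrl. The last uses the tissue measured here, so its values are no second measurement. In the authors' deposited table for the appendage 4 members were positive and 1 negative at a false discovery rate under 0.05, where 34.7% of its 13646 genes passed (16.8% positive and 17.9% negative). Around the veins 1 of the 8, Edn1, passed in the authors' deposited table, against 5.50% of all genes. Edn1 had a log2 fold change of 3.52 in the appendage (false discovery rate 7.33e-46) and 1.13 around the veins (0.002) in the authors' deposited table. In the same comparison of the authors' deposited table, Ace was at 1.12 in the appendage (4.62e-05) and 0.42 around the veins (0.335), and Ece1 at 0.82 (0.000155) and 0.34 (0.509). Ednra was negative in both, at -0.97 (0.000336) and -0.64 (0.112), in the authors' deposited table. Adm differed in sign in the authors' deposited table, with 0.84 in the appendage (0.00723) and -0.55 around the veins (0.215). Whether the 2 tissues differed in these effects was not tested.

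For the region, positive values of the authors' deposited table were read as higher around the pulmonary veins, since its 89 genes above a log2 fold change of 4 had a median of 15.5 CPM in the libraries used here and its 7 genes below -4 a median of 0.945 CPM. Its header does not say which mice entered. Of the 8 members 2 passed in the authors' deposited table, both positive, against 12.2% of all genes in either direction and 8.19% positive: Adm at a log2 fold change of 1.20 (false discovery rate 0.00017) and Agtr1a at 1.04 (0.0238). Edn1 (0.44, false discovery rate 0.51), Ace (0.46, 0.271) and Ednra (0.34, 0.328) did not pass in the authors' deposited table. Of the surrounding lists, the mast cell protease genes had high regional values in the authors' deposited table, a choice of genes made after their values were seen. Cma1, a chymase that makes angiotensin II without the converting enzyme, was at 9.12 (9.74e-23) and Cpa3 at 3.98 (4.43e-13) for the region in the authors' deposited table. Here Cma1 ranged over 5.73 to 15.2 CPM among Ctrl libraries and 8.21 to 13.5 CPM among CKO libraries (log2 fold change 0.20, SE 0.28, adjusted p = 0.76, edgeR). Both Cma1 and Cpa3 were highest in Ctrl 3 within Ctrl and in CKO 4 within CKO, the 2 libraries highest in airway RNA. The part of airway tissue in the regional values was not tested.

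**Figure D5:**
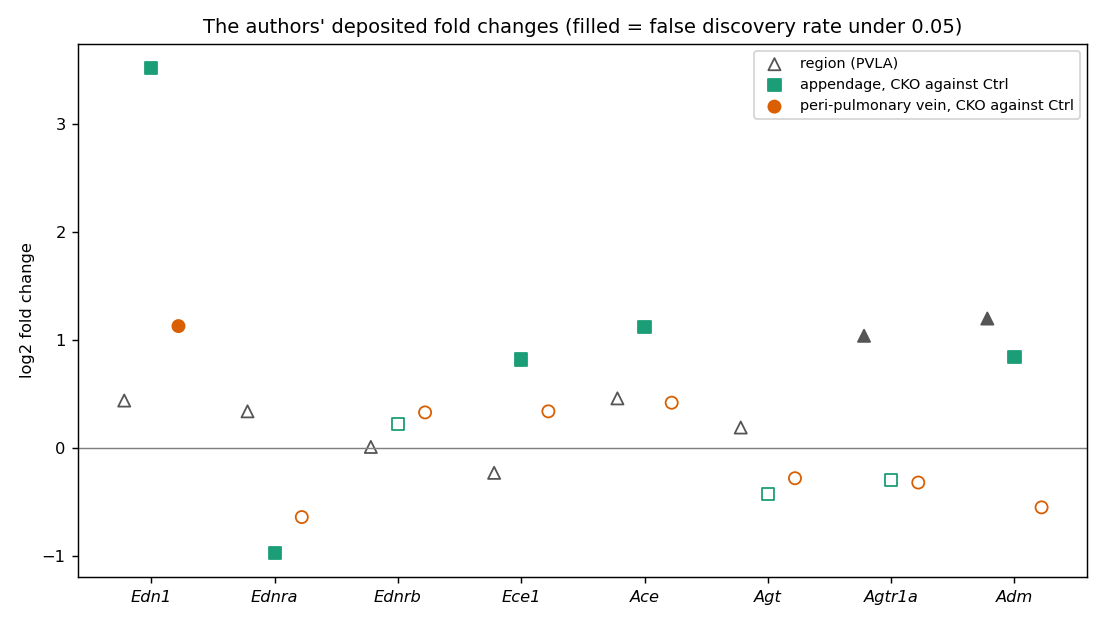
Log2 fold changes of the 8 members in the authors' deposited table for the region (triangles, positive taken as higher around the pulmonary veins), the appendage of CKO against Ctrl (squares) and the peri-pulmonary vein tissue of CKO against Ctrl (circles); filled symbols have a false discovery rate under 0.05. Edn1 is at 3.52 in the appendage and 1.13 around the veins, and Adm is above 0 in the appendage and below 0 around the veins.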

How the data were processed

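The authors aligned reads with TopHat2 2.1.1 and assembled with StringTie 1.3.3 per the submitters' processing notes, on mm10. StringTie used Ensembl GRCm38.94 transcripts only, with a stranded setting, per the file headers; the kit named in the labels does not mark strand. The labels name both polyA RNA and rRNA depletion. The deposited estimated counts equal, for all 54532 genes, each transcript's coverage multiplied by its length and divided by 50 (the read length), rounded up and summed. The deposited transcript files give coverage signal (mean reads per base) and TPM. The authors' deposited table gives log2 fold changes and false discovery rate p-values. The 10 columns of libraries that are not in the labels were not used.

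Counts were tested with edgeR 4.0.16 (quasi-likelihood, TMM, filterByExpr, Benjamini-Hochberg, R 4.3.3) on all 10 libraries, and CPM are TMM-scaled. There were 4 Ctrl and 6 CKO libraries, labelled as separate samples; where they are not separate animals, p-values measure technical spread. No replicates agreed within sampling noise (chi-square per degree of freedom 10.1 or more). Alternatives were 19: 18 planned with earlier results known, and 1, leaving out CKO 2 and CKO 5, chosen after their values were seen. DESeq2 1.42.0 and limma 3.58.1 served there. The members, lists and the libraries doubted were chosen with earlier results of these data known, and the motifs after the promoter sequences had been seen. The genes named are the 9 members, each called gene and the 2 most abundant of each list, the 3 genes most like a called member (pseudocount 0.5 CPM), and Tbx5. Replicate numbers were not treated as pairs, since the labels do not say that a number marks an animal, litter or day. Coordinates are GRCm38. Counting floors use 3 counts.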

Additional observations from a re-analysis of the deposited data

Results flagged for a closer look

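In 3 of the 46 groups of values checked, 1 library lay far from the rest of its group, where chance gives about 1 in 20. Of the 3 genes, 2 (Atpif1 and Gm5532) were picked for a profile like that of Edn1 over the same libraries, so these flags are not independent and their number is not to be read against chance. Edn1 was at 34 CPM in CKO 5, and the other CKO libraries were at 17.3 to 21.4 CPM. Without CKO 5 the log2 fold change of Edn1 was 0.98 (adjusted p = 0.0552, edgeR). Atpif1 was at 147 CPM in CKO 5, against 95.2 to 113 CPM in the other CKO libraries. Gm5532 was at 48.7 CPM in Ctrl 3, against 26.7 to 29.2 CPM in the other Ctrl libraries. CKO 5 also had the lowest Agtr1a level. The causes were not tested.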

How the results depend on the processing

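The threshold was passed by 497 genes (274 higher, 223 lower, 55.1% higher). DESeq2 called 1132 (61.1% higher), the replicate block 37 (29.7% higher) and the fit without CKO 2 and CKO 5 208; leaving out 1 library gave 190 (Ctrl 2) to 607 (Ctrl 3), with 221 without Ctrl 1, 237 without Ctrl 4, 305 without CKO 1 and 331 without CKO 2. With library size only, 518 passed and 44.4% were higher, and the median log2 fold change of all genes was -0.09. The count of members called was 0 with library size only, with no filter on low counts, with the replicate block (Edn1 1.08, adjusted p = 0.164) and without CKO 2 and CKO 5, and 0 to 1 with 1 library left out. Same-numbered Ctrl and CKO libraries did not deviate together over the genes as a whole (correlations 0.00219, 0.162, -0.42 and 0.0475). A smaller effect shared by such libraries could be missed by these correlations, so they do not settle whether the numbers mark pairs. Of 152 member values under alternatives 138 kept their direction and side of the threshold, 13 (all Edn1) lost the call and 1 changed sign: Agtr1a without CKO 2 and CKO 5 (0.16). Other genes near 0 changed sign. Lnpep was at 0.01 with DESeq2 size factors, with DESeq2 and with the replicate block, at 0.05 with no filter and without CKO 2 and CKO 5, and at -0.06 to 0.06 with 1 library left out. Rgs5 was at -0.05 with library size only and at -0.06 to 0.09 with 1 library left out. Itpr1 was at 0.02 with no filter, 0.00 without Ctrl 3 and CKO 4, and -0.04 to 0.02 with 1 library left out. Pam missed the threshold with the replicate block (adjusted p = 0.105); Rgs2 missed without Ctrl 1 or Ctrl 4 (up to 0.0589), and Rcan1 with the block and without Ctrl 1 or Ctrl 2 (up to 0.133). Edn3 entered the test with no filter (log2 fold change 0.37, adjusted p = 0.907) and gave -0.09 to 0.32 without Ctrl 1, 2 or 3. At 67 counts for Edn3 and 1581 for Edn1, depth limits what could be detected. The causes of these changes were not tested.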
